A study of Homo sapiens with 6 samples.

Results

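The 40 genes described here encode the machinery that carries a cell from G2 through mitosis to cytokinesis. They were chosen by gene symbol from a named list, with earlier results of these data known. All 40 stand among the 15284 genes shared by both deposited tables. The libraries come from HCT116, a human colorectal carcinoma cell line, sequenced as poly(A) RNA in 3 groups of 2 libraries. WT is labelled both wild type and negative control. KO1 and KO2 are lines made with different guides against MUC3A, which encodes a membrane mucin. Guides were carried on lentiCRISPR v2, virus was used at a multiplicity of infection of 10, and infected cells were selected in puromycin at 2 µg/mL for 72 h. The protocol also describes a virus with a scrambled insert for the control line. Whether the sequenced WT cells had been infected and selected is not settled by the labels, and neither is whether a knockout line is 1 clone. Each group has 1 library whose name starts with HCT and 1 whose name starts with HCT116, called here the HCT-named and HCT116-named sets, and no source used here says what separates the sets. No source says that both libraries of a group were grown separately, and p-values here cover the spread among the 6 libraries alone, technical or not.

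Entry into mitosis is driven by CDK1 bound to B-type and A-type cyclins, which CDC25 phosphatases switch on. PLK1 and the Aurora kinases then build the spindle, the spindle checkpoint holds back the anaphase-promoting complex (APC/C) until kinetochores are attached, and kinesins, anillin and ECT2 complete cytokinesis. Many of these genes are transcribed together late in the cell cycle through the transcription factor FOXM1 and the MYB-MuvB complex, so their RNA is commonly read as a sign of how many cells are cycling. In bulk RNA, fewer cells in G2 and mitosis and less of these RNAs per cell cannot be told apart.

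Totals were 13638724 to 17830282 counts per library, and the 40 genes took 0.452% to 0.565% of them. The targeted gene MUC3A stood at 52.7 CPM (counts scaled to the library size) in HCT-named and 25.1 in HCT116-named WT, at 52.9 and 28.6 for KO1, and at 30.0 and 24.6 for KO2. Its RNA therefore separated neither KO1 library, nor the HCT116-named KO2 library, from WT of the same set. The lower value in KO2 rests on its HCT-named library. A guide can disrupt a protein without lowering its RNA. Of 10 colorectal epithelium markers, 8 were in the tables, and their summed level was 6350 and 8370 CPM for WT, 8740 and 15000 for KO1, and 5270 and 9240 for KO2. Most of this sum was KRT8, KRT18 and KRT19. KRT20 and LGALS4 were not among the shared genes, and VIL1 and CDX1 had 0 to 3 reads. Of the 6 epithelial markers tested, 2 had fitted values below WT in KO1, and 0 were called against WT for either guide (1.03% and 4.61% of all genes). In KO2 against KO1, 4 were called lower by edgeR, against 5.39% of all genes. Of 7 leukocyte markers 5 were in the tables, with a summed level of 8.59 and 8.96 CPM for WT, 20.8 and 19.6 for KO1, and 5.65 and 13.1 for KO2. Most of it was CD68, a lysosomal protein of macrophages, with 89 to 284 reads per library, while PTPRC, which marks leukocytes, had 0 or 1 read. CD68 had a log2 fold change of 1.21 ± 0.30 in KO1 against WT (edgeR, adjusted p = 0.106) and was lower in KO2 than in KO1 (-1.25 ± 0.30, edgeR, adjusted p = 0.0248). Of 7 fibroblast markers 4 were in the tables, summing to 47.5 to 77.4 CPM, mostly COL1A1 (444 to 1268 reads), with DCN at 0 or 1 read. ACTA2 had 64 to 211 reads and a log2 fold change of 1.04 ± 0.29 in KO1 (edgeR, adjusted p = 0.166). The part of such cells in the members' values was not tested.

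Levels between genes were compared as CPM per kb of the longest GENCODE v29 transcript, since longer transcripts give more reads. CDC20, which activates the APC/C at anaphase, had the highest mean level of the 40. Its level was 132 and 350 CPM per kb for WT, 129 and 279 for KO1, and 117 and 234 for KO2, with the HCT-named library first in each pair. UBE2C, the ubiquitin-conjugating enzyme of the APC/C, followed at a mean of 184 CPM per kb, then CDC25B, a phosphatase that activates CDK1, at 119, CCNB1, cyclin B1, at 115, and PLK1 at 107. The ranges of these 5 genes over the 6 libraries overlap. Within each library, CDC20 and UBE2C were above CDC25B, CCNB1 and PLK1, whose own order changed between libraries. In the HCT-named KO1 library CDC20 (129) was close to CDC25B (126.5). UBE2C was above CDC20 in the HCT-named KO1 and KO2 libraries, at 141.5 against 129 and 123 against 117 CPM per kb.

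The lowest levels were those of CENPE, NUSAP1 and PRC1. CENPE, a kinesin of the kinetochore, averaged 3.52 CPM per kb. NUSAP1, a microtubule-bundling protein of the spindle, averaged 2.14 CPM per kb from 37 to 111 reads per library, and its range overlaps that of CENPE. PRC1, which crosslinks the central spindle, had 6 and 0 reads for WT, 1 and 1 for KO1, and 6 and 2 for KO2, and was the 1 member that did not pass the filter on low counts. In GENCODE v29 (GRCh38), 58.4% of the exonic bases of PRC1 and 62.2% of those of NUSAP1 also lie in exons of other genes. For PRC1, 3181 of these 3226 bases lie in AC068831.7, and for NUSAP1 all 1787 lie in AC087721.2, both protein-coding genes on the same strand. The other 38 genes share at most 15.9%, and 24 of them share none. How the authors' counting treated reads that fall in 2 genes was not tested, so the levels of PRC1 and NUSAP1 are uncertain.

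**Figure D1:**
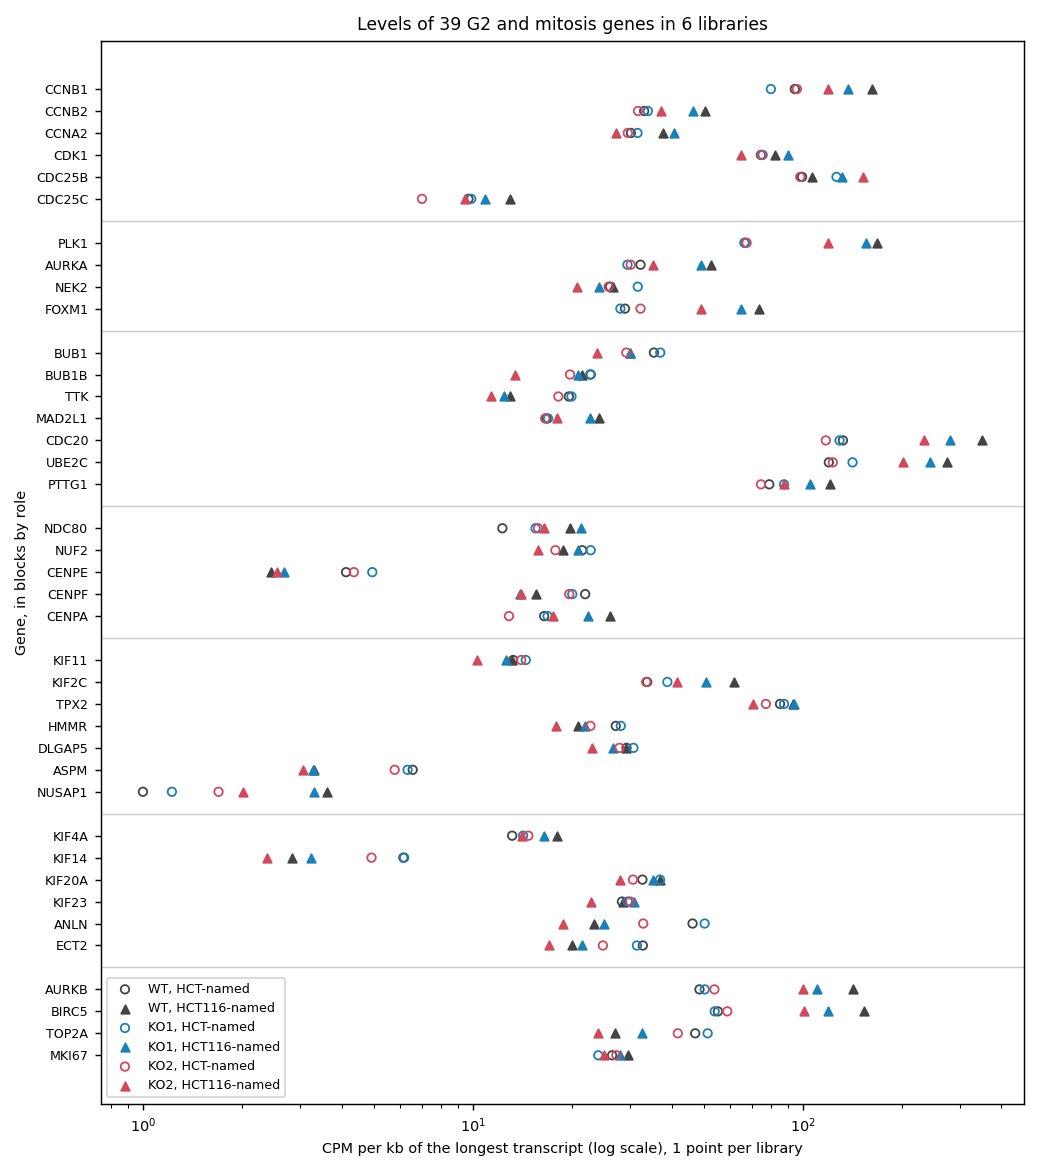
Level in CPM per kb of the longest transcript (log axis) of the 39 members with enough reads to test, 1 point per library, in blocks by role. Circles are HCT-named and triangles HCT116-named libraries; CDC20, the highest by its mean, runs from 117 to 350, and for genes such as CDC20, PLK1 and ANLN the circles and triangles form separate clusters.

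What these genes share in sequence was read from their promoters. RefSeq windows (GRCh38.p14) from 250 bases before to 50 after a transcription start were matched for 34 of the 40 genes, with 44 windows. AURKA, FOXM1, TTK, UBE2C, TPX2 and BIRC5 had no match. The letters TTTGAA, known as the core of the cell cycle genes homology region (CHR) to which MuvB binds, were found on either strand in a window of 24 of 34 members, or 70.6%. Over the 11759 genes of the tables with a window, 14.3% held them. CCAAT, the letters bound by NF-Y, were found on either strand in 28 members (82.4%), against 42.3% of all genes. Both stood in the same window for 20 members (58.8%), against 5.88% of all genes. The longer form, GCGG followed by any 4 bases and TTTGAA, which joins a cell cycle-dependent element to the CHR, was in 5 members (14.7%), against 0.162% of all genes. These are letter matches and not measured binding, and neither element was seen in the windows of CENPE and KIF2C.

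Of these windows, 6 are printed as examples of where the letters stand, from genes on both sides of the difference between the library sets described further on: CDC20, PLK1 and CCNB2 were higher and ANLN, ASPM and TOP2A lower in HCT116-named libraries. Each is the 200 bases before the RefSeq start (GRCh38.p14), 5′ to 3′ on the strand of the gene, with TTTGAA or its reverse complement TTCAAA and CCAAT or its reverse complement ATTGG in capitals. They were picked after the values and the matches were seen, and are not the 6 most extreme members.
CDC20 (chr1:43358781-43358980, + strand): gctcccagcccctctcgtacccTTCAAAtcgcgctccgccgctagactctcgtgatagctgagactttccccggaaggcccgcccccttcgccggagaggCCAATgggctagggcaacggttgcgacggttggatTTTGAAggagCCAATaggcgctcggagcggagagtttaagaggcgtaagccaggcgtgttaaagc
PLK1 (chr16:23678689-23678888, + strand): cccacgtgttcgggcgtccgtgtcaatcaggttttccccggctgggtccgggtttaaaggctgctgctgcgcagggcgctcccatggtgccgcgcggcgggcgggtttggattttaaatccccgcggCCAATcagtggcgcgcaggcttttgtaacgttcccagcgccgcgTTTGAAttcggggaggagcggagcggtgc
CCNB2 (chr15:59104946-59105145, + strand): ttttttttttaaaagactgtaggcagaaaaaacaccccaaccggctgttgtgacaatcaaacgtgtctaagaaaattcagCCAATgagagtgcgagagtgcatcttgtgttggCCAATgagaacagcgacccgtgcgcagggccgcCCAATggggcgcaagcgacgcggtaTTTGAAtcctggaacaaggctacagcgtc
ANLN (chr7:36389662-36389861, + strand): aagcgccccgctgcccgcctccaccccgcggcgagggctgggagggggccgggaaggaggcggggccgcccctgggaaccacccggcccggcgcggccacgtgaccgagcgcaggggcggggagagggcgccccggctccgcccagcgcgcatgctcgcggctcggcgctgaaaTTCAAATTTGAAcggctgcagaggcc
ASPM (chr1:197146670-197146869, - strand): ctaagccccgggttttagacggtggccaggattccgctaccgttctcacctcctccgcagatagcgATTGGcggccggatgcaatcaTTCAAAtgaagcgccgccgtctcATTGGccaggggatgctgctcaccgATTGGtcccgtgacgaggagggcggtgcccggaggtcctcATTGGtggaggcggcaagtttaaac
TOP2A (chr17:40417897-40418096, - strand): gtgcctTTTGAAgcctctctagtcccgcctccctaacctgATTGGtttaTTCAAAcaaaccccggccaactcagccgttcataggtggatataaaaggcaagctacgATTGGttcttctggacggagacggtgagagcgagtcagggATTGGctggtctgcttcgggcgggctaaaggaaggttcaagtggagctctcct
Over all members called between the sets, the CHR letters were in a window of 7 of the 11 higher and 7 of the 9 lower members with one. AURKB, CCNB1, KIF2C and PTTG1 among the higher and CENPE and BUB1 among the lower held none. In its printed bases, CCNB2 has 3 of the 4 CCAAT matches of its window, spaced before 1 CHR match close to the start. The ANLN window has CHR letters on both strands side by side and 0 CCAAT matches, while that of ASPM has 4 CCAAT matches.

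In KO1 against WT, none of the 39 members tested passed the test. By edgeR's quasi-likelihood test with the library set in the fit and Benjamini-Hochberg adjustment over 12678 genes, 0 of 39 members passed 0.05, against 1.03% of all genes tested. At an unadjusted p under 0.05 the count was also 0, against 8.85% of all genes, and DESeq2 and limma-voom called 0 as well. The members' median log2 fold change was -0.02 (range -0.24 to 0.32), beside 0.00 over all genes tested, and 20 of 39 values lay below 0, against 49.7% of all genes. Thus the members were spread around 0 in KO1.

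CDC25B had the smallest p of the members in KO1. Its level was 358 and 384 CPM in WT and 455 and 472 CPM in KO1, with the HCT-named library first. Both KO1 libraries were above both WT libraries, as they were for 2 of 39 members (the other was KIF23, a kinesin of the central spindle), against 6.86% of all genes, and no member had both below (0 of 39, against 5.71%). The log2 fold change of CDC25B was 0.32 ± 0.15 (SE) and did not pass edgeR's test (adjusted p = 0.6). With each library left out in turn, the log2 fold change of CDC25B ran from 0.16 to 0.46. Without the HCT-named KO2 library, which leaves the CDC25B levels of KO1 and WT as they were, it was again 0.32.

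CCNB1 had 205 and 352 CPM in WT and 173.5 and 297 CPM in KO1. It was lower in both sets by a similar amount, with a log2 fold change of -0.24 ± 0.14 (edgeR, adjusted p = 0.71), although its values overlap across sets. TOP2A, the topoisomerase that untangles sister chromatids, had 272 and 155 CPM in WT and 296 and 187 in KO1 (log2 fold change 0.20 ± 0.12, edgeR, adjusted p = 0.721). For CDC20, KO1 had 229.7 and 495 CPM against 235 and 622.5 in WT, a difference almost wholly between the HCT116-named libraries (log2 fold change -0.19 ± 0.13, edgeR, adjusted p = 0.808). The anchors CDK1, PLK1, AURKA, AURKB, BUB1, MKI67 and FOXM1 had log2 fold changes from -0.17 for AURKB to 0.08 for CDK1, each with an edgeR adjusted p of 0.859 or higher. Within sets, the median log2 ratio of the 39 members to WT was 0.05 between HCT-named and -0.09 between HCT116-named libraries, 1 library against 1. The count of members below WT was 11 in the first and 25 in the second, against 49.5% and 49.6% of all genes tested.

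In KO2 against WT, nearly all members had lower fitted values, but none passed the test. The log2 fold change was below 0 for 36 of 39 members, against 50% of all genes, with a median of -0.21 (range -0.47 to 0.26) beside 0.00 over all genes tested. The median was -0.10 with 28 members below 0 without the HCT116-named WT library, -0.12 with 27 below 0 without the HCT116-named KO2 library, and -0.34 without either the HCT-named WT or the HCT-named KO2 library. By edgeR 0 of 39 passed an adjusted p under 0.05, against 4.61% of all genes. At an unadjusted p under 0.05 there were 8, all lower, against 9.76% of all genes lower at that p, and DESeq2 and limma-voom called 0 at an adjusted p under 0.05. The 8 were ANLN, CENPA, BUB1B, CDC20, CDC25C, ECT2, BUB1 and AURKA. Both comparisons with WT use the same WT libraries, so their values are not independent.

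ANLN, anillin, the scaffold of the contractile ring, had the smallest p of the members in KO2. Its level was 222 and 111.5 CPM for WT, 241 and 120 for KO1, and 157 and 89.7 for KO2. KO2 had the lowest ANLN library of each set, but the HCT-named KO2 library was above the HCT116-named WT library, so the groups overlap. The log2 fold change against WT was -0.41 ± 0.12 (edgeR, adjusted p = 0.0829). ECT2, an exchange factor that acts at the division plane, also had its lowest library of each set in KO2, with 144 and 87.8 CPM for WT, 138 and 94.1 for KO1, and 109 and 74.7 for KO2 (log2 fold change -0.32 ± 0.12, edgeR, adjusted p = 0.167).

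CENPA, the centromeric histone H3 variant, had 23.9 and 37.7 CPM in WT and 18.7 and 25.4 in KO2. Its log2 fold change was -0.47 ± 0.16 (edgeR, adjusted p = 0.124), and KO2 was the lowest of the 3 groups in each set. BUB1B, the checkpoint protein BubR1, had 84.8 and 79.5 CPM in WT and 73.4 and 50.1 in KO2, with both KO2 libraries below both WT libraries. The log2 fold change of BUB1B was -0.43 ± 0.14 (edgeR, adjusted p = 0.124). CDC20 had 209 and 415 CPM in KO2 against 235 and 622.5 in WT, and so was lower in both sets and more so between the HCT116-named libraries (log2 fold change -0.38 ± 0.13, edgeR, adjusted p = 0.142).

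The remaining anchors had smaller fitted values. BUB1, a checkpoint kinase, had -0.30 ± 0.12 and AURKA, the kinase of the spindle poles, -0.33 ± 0.15 (edgeR, adjusted p = 0.179 and 0.243). PLK1, CCNB1, FOXM1, AURKB, TOP2A, CDK1 and MKI67 had log2 fold changes of -0.24 to -0.10 with edgeR adjusted p of 0.395 to 0.744. CDC25B and CENPE were among the 3 members with a value above 0, at 0.26 and 0.07.

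**Figure D2:**
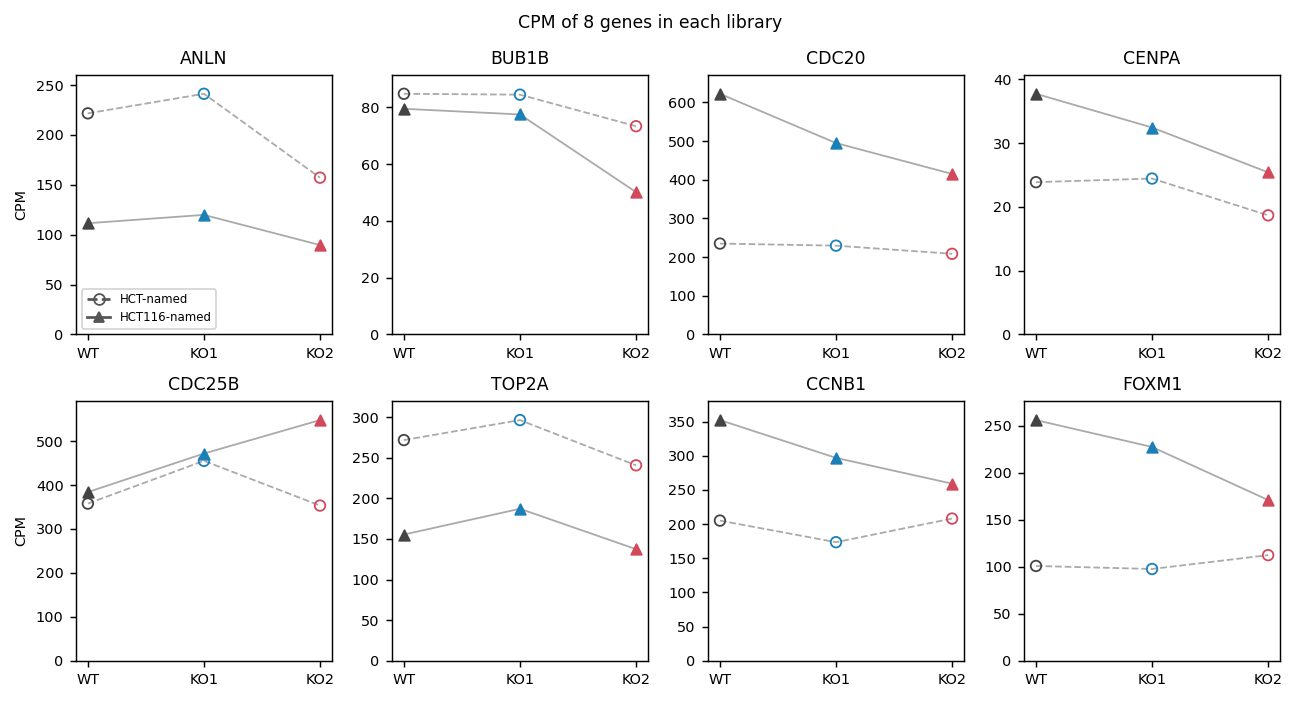
CPM (linear axis from 0) of 8 named members in WT, KO1 and KO2; each point is 1 library, and lines join libraries of the same set only to guide the eye. In KO2, ANLN, BUB1B, CDC20, CENPA and TOP2A were lowest in both sets. FOXM1 and CCNB1 were lowest in KO2 in the HCT116-named set only, and CDC25B in the HCT-named set only.

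The shift in KO2 was larger between HCT116-named than between HCT-named libraries. The members' median log2 ratio to WT was -0.36 between HCT116-named libraries, beside 0.02 over all genes tested (10th to 90th percentile -0.46 to 0.62). Between HCT-named libraries it was -0.06, beside -0.01 over all genes. Of 39 members, 37 were below WT in the first set and 25 in the second, against 48.2% and 51% of all genes. By more than 0.25 on the log2 scale, a limit chosen after seeing the data, 28 were lower in the HCT116-named and 8 in the HCT-named set, against 22.3% and 26% of all genes. Lower in both sets were 24 members, against 29.4% of all genes, and both KO2 libraries were below both WT libraries for 9, against 8.48%. The ratio was lower in the HCT116-named than in the HCT-named set for 30 members, against 47% of all genes. The 9 without overlap were CCNA2, CDC25C, NEK2, BUB1, BUB1B, NUF2, TPX2, DLGAP5 and KIF20A. With 1 library per group and set, the difference between the sets in the response to a guide could not be tested.

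**Figure D3:**
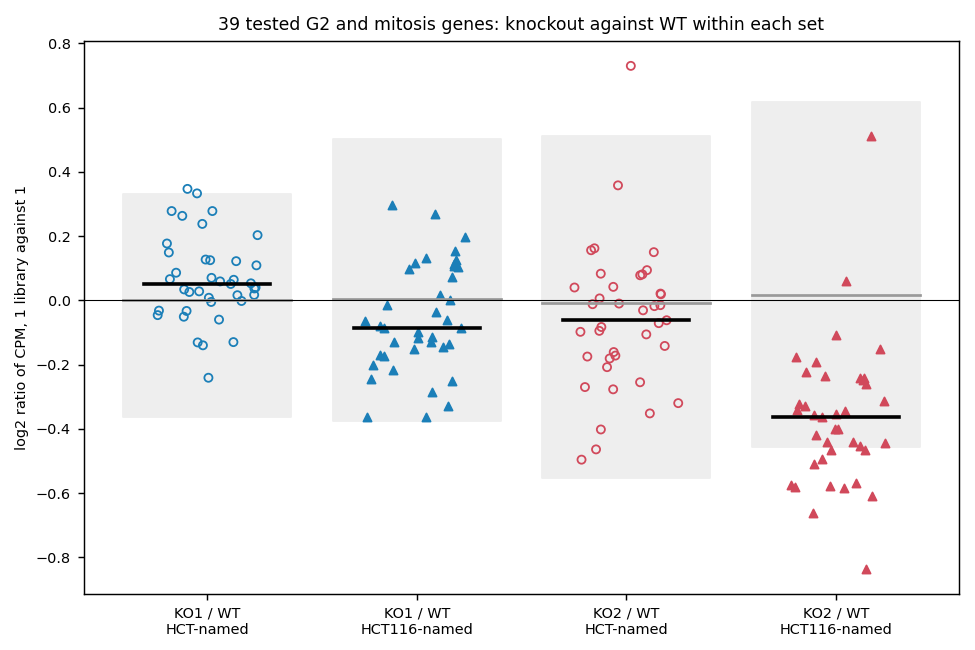
Log2 ratio of CPM, knockout over WT, 1 library against 1, for 39 members in each set; the black bar is the members' median and the grey line and band are the median and the 10th to 90th percentile of all 12678 genes tested. Only between the HCT116-named KO2 and WT libraries does the members' median (-0.36) stand well away from that of all genes, with 37 of 39 points below 0.

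By role, the group of PLK1, AURKA, NEK2 and FOXM1 had the lowest median between the HCT116-named KO2 and WT libraries, at -0.54, with all 4 below 0. Other mitotic kinases were placed in other roles, and the ranking depends on this grouping. There AURKB was at -0.51, CDK1 at -0.34, BUB1 at -0.33 and TTK at -0.19. FOXM1 went from 256 to 171 CPM there, PLK1 from 374.5 to 266 and AURKA from 118 to 79.2. Between the HCT-named libraries PLK1, AURKA, NEK2 and FOXM1 had a median of 0.00, and FOXM1 stood at 101 CPM in WT and 112 in KO2. The 6 cyclin, CDK1 and CDC25 genes had medians of -0.44 and -0.03 in the HCT116-named and HCT-named sets. CCNB1 stood at 352 and 259 CPM in the first set and at 205 and 208 in the second. CDC25B was the exception of its role, with 384 CPM in WT and 548 in KO2 among HCT116-named libraries.

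The 7 genes of the spindle checkpoint and the APC/C had medians of -0.44 and -0.11, with all 7 below WT in the HCT116-named set and 6 in the HCT-named set. TTK, the checkpoint kinase MPS1, had the value nearest 0 among them there, at -0.19. The 5 kinetochore and centromere genes had medians of -0.25 and -0.16. CENPE was the 1 member above WT in both sets (0.06 and 0.08), against 30.1% of all genes. The 7 spindle genes had medians of -0.36 and -0.07, with KIF2C, a microtubule-depolymerizing kinesin, at -0.58 and -0.01. For cytokinesis, the 6 tested genes had medians of -0.32 and -0.21, the role in which the HCT-named value was lowest. The chromosomal passengers AURKB and BIRC5 (survivin), with TOP2A and MKI67, had medians of -0.375 and 0.07. AURKB had 178 CPM in WT and 125 in KO2 among HCT116-named libraries, and 61.0 and 67.7 among HCT-named ones.

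Between the guides, ANLN was the 1 member called. KO2 was lower than KO1 by edgeR (log2 fold change -0.52 ± 0.12, adjusted p = 0.0187), with 157 against 241 CPM in HCT-named and 89.7 against 120 in HCT116-named libraries. This was 1 of 39 members, against 9.62% of all genes tested. It held with DESeq2 and limma-voom, and was lost when either KO1 library was left out (edgeR, adjusted p = 0.341 and 0.147) and without the set in the fit (edgeR, adjusted p = 1). The median over the members was -0.21, beside 0.00 over all genes, and 37 of 39 values were below 0, against 50%. Without the HCT116-named KO2 library the median was -0.08 with 26 below 0, and without the HCT-named one it was -0.36.

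At an unadjusted p under 0.05 there were 12 members, all lower in KO2, against 13.2% of all genes lower at that p. Besides ANLN they were TOP2A, BUB1, BUB1B, ECT2, NUF2, KIF14, HMMR, TPX2, CENPA, KIF20A and CCNA2. TOP2A had 296 and 187 CPM in KO1 and 241 and 137 in KO2 (log2 fold change -0.37 ± 0.12, edgeR, adjusted p = 0.0727). BUB1 followed at -0.34 ± 0.12 and BUB1B at -0.41 ± 0.14 (edgeR, adjusted p = 0.0984 and 0.103). CCNB1, MKI67 and AURKB lay near 0 between the guides, at 0.04, 0.02 and -0.02.

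All these calls depend on the set being in the fit. Without it edgeR called 0 of 39 members and 0 of 12678 genes in each of the 3 comparisons of groups, where the fit with the set called 130, 585 and 1220 genes. Leaving out the HCT-named KO2 library, so that KO2 rests on its HCT116-named library alone, gave 17 members in KO2 against WT, 16 lower and CDC25B higher, against 12.8% of all genes. Leaving out the HCT116-named KO2 library gave 3, ANLN, CDC25C and ECT2, all lower, against 16.7% of all genes. With 1 library left, KO2 is assumed to vary like the other groups. The authors' deposited table gave 0 of 40 members an adjusted p under 0.05 in either comparison, against 0.0386% of all genes in KO1 and 0.191% in KO2. Their log2 fold change was below 0 for 24 members in KO1 and 37 in KO2 in the authors' deposited table, against 54% and 57.4% of all genes.

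The members differed far more between the library sets than between groups, and they split in direction. With group in the fit, edgeR called 25 of 39 (64.1%) between HCT116-named and HCT-named libraries, against 63.9% of all genes tested. Of these 15 were higher in HCT116-named libraries, against 31.8% of all genes, and 10 lower, against 32.1%. The median over the members was 0.09, beside -0.02 over all genes. The number of members called was thus that of genes at large, and what follows describes which members lay on either side.

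CDC20 was at 235, 229.7 and 209 CPM in the HCT-named libraries of WT, KO1 and KO2 and at 622.5, 495 and 415 in the HCT116-named ones, with no overlap (log2 fold change 1.17 ± 0.11, edgeR, adjusted p = 1.01e-05). PLK1 had 148 to 150.4 CPM in HCT-named and 266 to 374.5 in HCT116-named libraries (1.13 ± 0.12). AURKB rose from 61.0 to 67.7 CPM in the HCT-named to 125 to 178 in the HCT116-named set (1.19 ± 0.13). NUSAP1, BIRC5, FOXM1, UBE2C, CCNB1 and AURKA followed at 1.16, 1.13, 1.06, 0.89, 0.62 and 0.56. KIF2C, CENPA, CCNB2, NDC80, PTTG1 (securin) and MAD2L1 were the other higher members, from 0.53 to 0.36.

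On the other side, ANLN had 157 to 241 CPM in HCT-named and 89.7 to 120 in HCT116-named libraries (log2 fold change -0.94 ± 0.10). KIF14, a kinesin of the midbody, had the lowest value at -1.03, and ASPM, a protein of the spindle poles, was at -0.96. CENPE, TOP2A, TTK, ECT2, CENPF, HMMR and BUB1 were the others, from -0.81 to -0.28. HMMR, BUB1, MAD2L1 and NDC80 lost their call when any 1 of the WT or KO1 libraries was left out, and CENPA and PTTG1 when either WT library was. CDK1 at 0.06 and MKI67 at 0.09 did not pass. The sign of the difference was the same in WT, KO1 and KO2 for 31 of 39 members, against 78.5% of all genes.

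**Figure D4:**
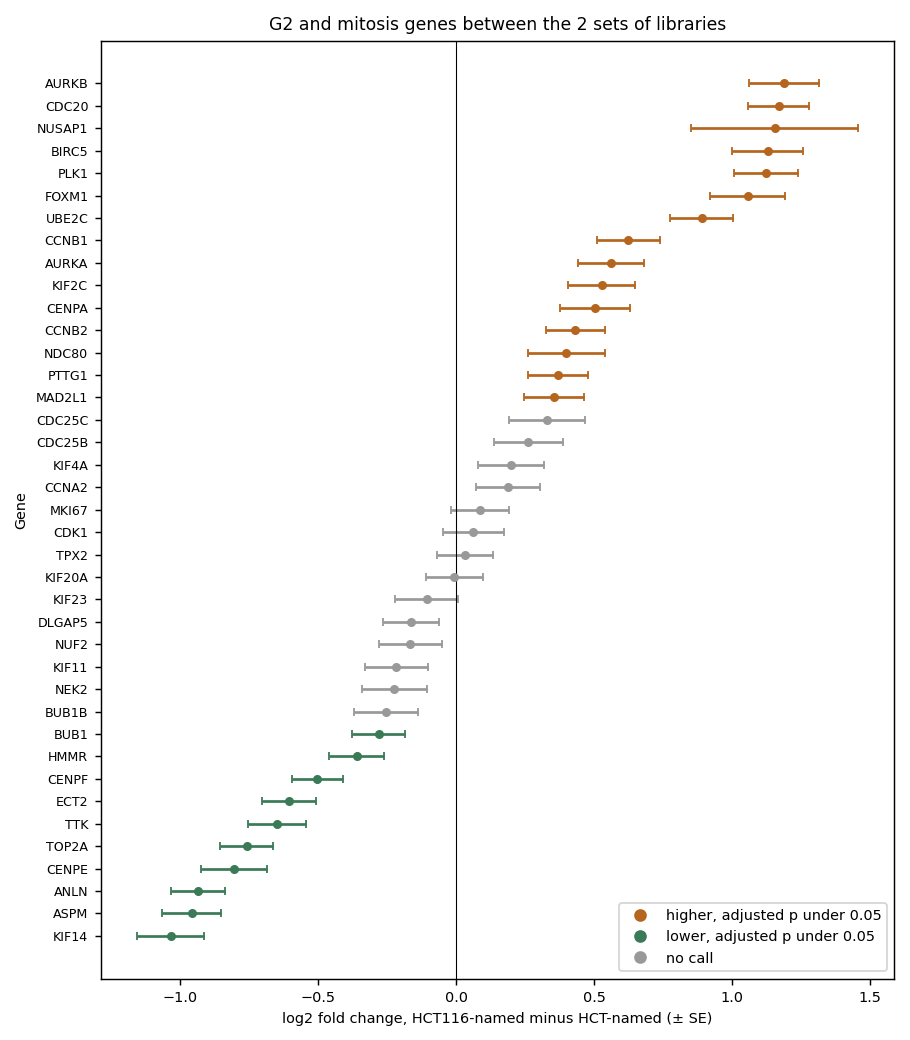
Log2 fold change, HCT116-named minus HCT-named libraries, of 39 members with its SE, by edgeR with group in the fit. Of these, 15 were higher (CDC20 at 1.17), 10 lower (KIF14 at -1.03) and 14 not called at an adjusted p of 0.05.

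The 2 sides differed in their transcripts, a description added after seeing the data. In the longest GENCODE v29 transcript, the 15 higher members had a median GC content of 49.3% and a median length of 2227 bases. The 10 lower members had 38.7% and 5272.5 bases, and the 14 without a call 42.8% and 3399 bases. Across the 39 members the log2 difference between sets went with GC content (Pearson's r = 0.75, Spearman's coefficient = 0.75) and against log length (Pearson's r = -0.65, Spearman's coefficient = -0.68). Over 12657 genes these were 0.55 and 0.57 for GC content and -0.51 and -0.53 for length. The points share the same 6 libraries, and genes are not independent replicates. CDC25B, with the highest GC content of the members (59.3%), and NUSAP1, at 42.6% and 1.16, lay off this trend. The part of GC content and length in the set difference was not tested.

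Within the HCT116-named set, the ratios to WT ran the other way along GC content and length for both guides. Both share the HCT116-named WT library, which also enters the set difference with the opposite sign. The opposite direction is therefore not independent of the set difference. Spearman's coefficient with GC content over the 39 members was -0.60 for KO1 and -0.62 for KO2 (r = -0.50 and -0.21), beside -0.26 and -0.17 over all genes (r = -0.14 and -0.11). With length it was 0.47 and 0.59, beside 0.24 and 0.12 over all genes. Within the HCT-named set, Spearman's coefficient with GC content was -0.04 for KO1 and 0.27 for KO2. The part of transcript composition in these ratios was not tested.

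**Figure D5:**
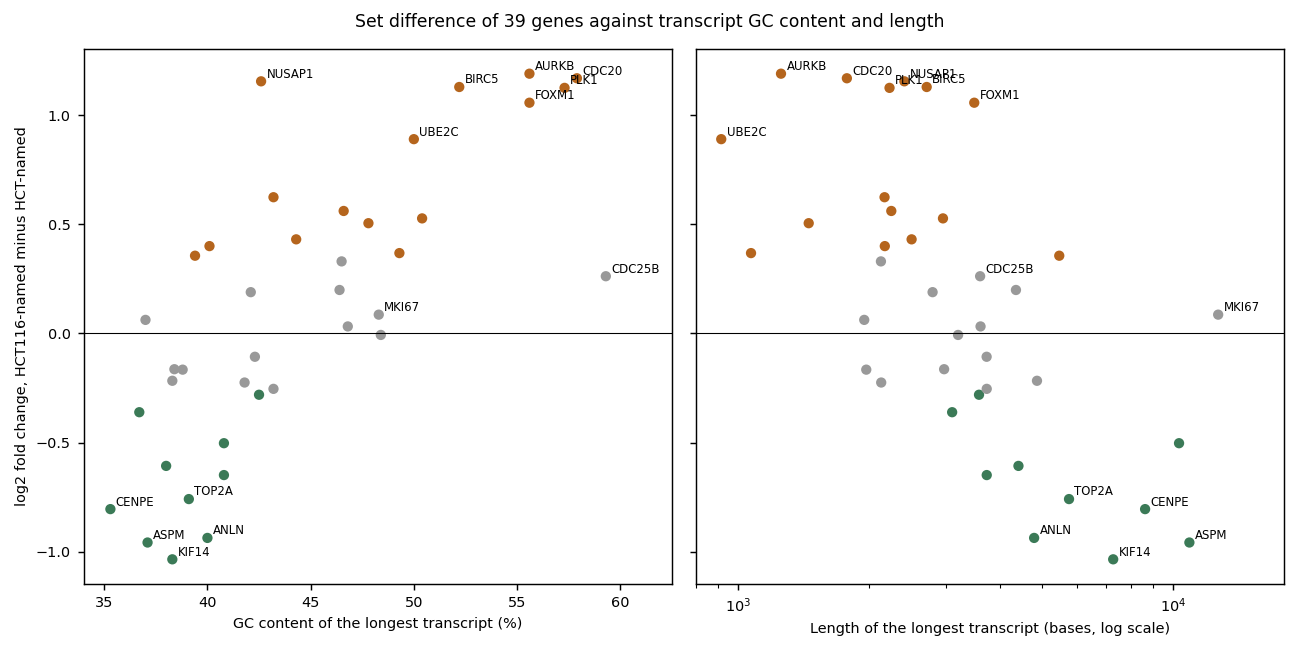
Log2 difference between the library sets against GC content (left, %) and length (right, bases, log axis) of the longest transcript, 1 point per member (39), brown where higher, green where lower and grey where not called. Higher members lie at higher GC content (median 49.3%) and lower members at greater length (median 5272.5 bases), with NUSAP1 and CDC25B off the trend.

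The rest of the cell cycle was read from lists chosen by function. Of 33 genes of G1/S and DNA replication, 0 were called in KO1 (1.03% of all genes) and 1 fell in KO2 (2.47% of all genes fell). It was CDT1, the licensing factor of replication origins (log2 fold change -0.62 ± 0.15, edgeR, adjusted p = 0.0388). CDT1 had 101 and 393.5 CPM in WT and 80.7 and 212 in KO2. The list's median ratio of KO2 to WT was 0.34 between HCT-named and -0.375 between HCT116-named libraries. Its HCT116-named median was thus close to the -0.36 of the mitotic members, while its HCT-named median lay above 0. Between the sets, 26 of the 33 were higher in HCT116-named libraries and 0 lower, with a median of 0.79, against 31.8% and 32.1% of all genes and a median of -0.02.

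Of 46 further mitotic genes tested, 0 were called in KO1 (1.03% of all genes) and 4 fell in KO2 (2.47% of all genes fell). In KO2 against KO1, 6 were called lower, against 5.39% of all genes. HJURP, the chaperone that loads CENPA at centromeres, had 55.6 and 88.4 CPM for WT, 55.7 and 82.8 for KO1, and 26.9 and 36.0 for KO2. Its KO2 libraries lay below all 4 others (log2 fold change -1.17 ± 0.13, edgeR, adjusted p = 0.000782), and it was also lower in KO2 than in KO1 (-1.13 ± 0.13, edgeR, adjusted p = 0.00039). SKA2, of the complex that holds kinetochores to microtubules, fell by 0.62 ± 0.12 on the log2 scale, and INCENP, the scaffold of the AURKB and BIRC5 complex, fell by 0.58 ± 0.13 (edgeR, adjusted p = 0.0163 and 0.0245). The list's median in KO2 was -0.14, beside 0.00 over all genes.

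Of 13 APC/C genes, 0 were called in KO1 (1.03% of all genes) and 1 fell in KO2 (2.47% of all genes fell). It was ANAPC11, the RING subunit (-0.59 ± 0.15, edgeR, adjusted p = 0.0473). Most of the list lay above WT in KO2, with a median of 0.17 beside 0.00 over all genes. Of its 13 values, 4 were below 0, against 50% of all genes. Of 12 tested G2 and mitotic brakes, 2 rose in KO1, against 0.678% of all genes. CDKN1A, the CDK inhibitor p21, had 318 and 309 CPM for WT, 517 and 687 for KO1, and 255 and 428 for KO2 (KO1 against WT 0.92 ± 0.17, edgeR, adjusted p = 0.027; KO2 against WT 0.08 ± 0.17, adjusted p = 0.859). SFN, 14-3-3 sigma, which keeps CDK1 out of the nucleus, had 149 and 347 CPM in WT and 214 and 570 in KO1 (0.62 ± 0.12, edgeR, adjusted p = 0.0407). GADD45B, a stress-induced partner of CDK1, fell in KO2 (-0.88 ± 0.18, edgeR, adjusted p = 0.0196), 1 of 12 against 2.47% of all genes. The median of these brakes in KO2 was 0.05, beside 0.00 over all genes. CDKN1A therefore rose in KO1, in which 0 of the 39 members passed edgeR's test. Its KO2 level lay below WT in the HCT-named set (log2 ratio -0.32) and above it in the HCT116-named set (0.47).

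DREAM and MYB-MuvB factors repress and activate CHR-bearing promoters. The list read here also holds NFYA, of the NF-Y that binds CCAAT. Of its 14 tested genes, 0 were called in either guide against WT, beside 1.03% and 4.61% of all genes. Of these, 1, E2F4, a repressor E2F, was higher in KO2 than in KO1 (4.24% of all genes were; 0.46 ± 0.13, edgeR, adjusted p = 0.0475). MYBL2, the MYB subunit of the activating complex, had 88 and 275.5 CPM for WT, 92.1 and 259 for KO1, and 104 and 174 for KO2. Between the sets, 4 of the 14 were higher in HCT116-named libraries and 5 lower, against 31.8% and 32.1% of all genes. MYBL2 was higher (1.29 ± 0.15, edgeR, adjusted p = 3.17e-05), as FOXM1 was. RBL2 and NFYA were lower (-1.58 ± 0.14 and -0.73 ± 0.11, edgeR, adjusted p = 8.05e-06 and 0.000142).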

How the data were processed

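RNA-seq libraries of HCT116 cells were analysed in 3 groups of 2. The deposited read counts per gene symbol were made by the authors before normalization, per the file headers. The authors' deposited log2 fold change and p-value columns come from their own comparisons and were copied. STAR, DESeq2, HTSeq 0.6.0 and the build hg18 appear in the submitters' processing notes with no role given, and no source used here says whether reads were counted by strand. Other per-library columns (40), FPKM among them, were not used; FPKM had been planned for levels between genes, for which CPM per kb of the longest GENCODE v29 transcript was used instead.

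Counts of the 15284 genes shared by both tables were tested with edgeR 4.0.16 in R 4.3.3: TMM, filterByExpr by group (minimum count 10; 12678 genes kept), glmQLFit and glmQLFTest on all 6 libraries with group and library set (HCT-named or HCT116-named), Benjamini-Hochberg adjustment at 0.05, 2 residual degrees of freedom. The set was kept in the fit because libraries were compared within sets; a fit without it is an alternative and is printed beside the results. Column names give no replicate number, so the labels' numbers were not assigned. Deviations from group means of same-set libraries correlated across genes at 0.867, 0.815 and 0.783. Libraries of a group differed beyond sampling noise (chi-square per degree of freedom 94.7 to 145), so none was counted as a copy. Library sizes were scaled by TMM for CPM, and a prior count of 2 was added for log2 ratios. DESeq2 1.42.0 and limma 3.58.1 served as alternatives, as did other size factors, no filter and leaving out each library.

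Genes in full values are 10 anchors, members called between groups, the 4 with the smallest p in each of 4 comparisons, and the 3 highest and 3 lowest by level per kb; from other lists, up to 3 called genes with the smallest p, or the 1 with the smallest p, and CDKN1A. Further members are named by role or because a count holds them. Members, lists, tests and alternatives were chosen with earlier results of these data known. Exon overlap, GC content, length, the limits of 0.25 and 0.15 on log2 ratios and the printed promoters were chosen after seeing the values.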

Additional observations from a re-analysis of the deposited data

Results flagged for a closer look

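ANLN differed between the guides by edgeR's quasi-likelihood test of the difference itself, at -0.52 on the log2 scale (KO2 minus KO1, Benjamini-Hochberg adjusted p = 0.0187).

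The other entries are members whose ratio to WT went 1 way between HCT-named libraries and the other way between HCT116-named libraries, by at least 0.15 on the log2 scale in each, a limit chosen after seeing the data. Each value is the HCT116-named minus the HCT-named log2 ratio, and these differences were not tested, with 1 library per group and set. In KO1 they were UBE2C at -0.413 and KIF2C at -0.487. In KO2 they were FOXM1 at -0.738, NDC80 (a subunit of the kinetochore's microtubule-binding complex) at -0.617, NUSAP1 at -1.565, KIF4A (a kinesin that binds chromosomes) at -0.520 and AURKB at -0.659. For each of the 7, the knockout was above WT in the HCT-named set and below it in the HCT116-named set. NUSAP1 rests on 37 to 111 reads per library.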

How the results depend on the processing

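The main limits are 2 libraries per group, a set whose meaning is not known, and 2 residual degrees of freedom. The labels' replicate numbers could not be assigned to libraries, so the replicate block is the set. Without the replicate block, genes called fell from 130 to 0 in KO1 against WT, from 585 to 0 in KO2 against WT and from 1220 to 0 in KO2 against KO1, and members called in the last from 1 to 0. The set comparison has no value without the block. Genes called in KO1 against WT were 205 with DESeq2 and 316 without the filter on low counts, and in KO2 against WT 949 without the filter; the cause was not tested. The members' median level was 28.01 CPM per kb, and 21.06 per kb of all exonic bases, a length added after seeing the data; the planned FPKM alternative was not run.

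With each library left out in turn, members called ran from 0 to 1 in KO1 against WT, 0 to 17 in KO2 against WT and 0 to 13 in KO2 against KO1, and genes called from 69 to 901, 317 to 2170 and 391 to 3202. Leaving out either KO2 library rests that group on 1 library, so effect sizes are given. Without the HCT-named KO2 library the members' median log2 fold change was -0.34 relative to WT and -0.361 relative to KO1. Over all genes it was 0.007 and 0. Without the HCT116-named KO2 library it was -0.122 and -0.08 for the members, beside -0.006 and 0.009 over all genes. The members' median log2 fold change ran from -0.14 to 0.106 in KO1 against WT and from -0.361 to -0.08 in KO2 against KO1. In KO2 against WT it ran from -0.341 to -0.098 and between the sets from 0.029 to 0.22.

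Of 323 log2 fold changes of named members under other settings, 317 kept direction and call, and 5 with main values near 0 reversed. Without the block these were UBE2C (-0.035) and NUSAP1 (-0.028) in KO1 against WT and CCNB1 (-0.01) in KO2 against KO1, and MKI67 in KO2 against KO1 was -0.00046 with DESeq2 and with its size factors. ANLN in KO2 against KO1 lost its call without the block. Of 408 with a library left out, 43 reversed, 20 gained a call and 8 lost one: BUB1 between the sets in 4 fits, CENPA between the sets in 2 and ANLN in KO2 against KO1 in 2. In KO1 against WT these ranged for AURKA from -0.269 to 0.018, AURKB from -0.423 to 0.122, BUB1B from -0.14 to 0.108, CDC20 from -0.359 to 0.001, CDK1 from -0.084 to 0.216, CENPA from -0.21 to 0.031, FOXM1 from -0.316 to 0.123, NUSAP1 from -0.386 to 0.651, PLK1 from -0.212 to 0.108 and UBE2C from -0.193 to 0.262. In KO2 against WT they ranged for AURKB from -0.449 to 0.097, CCNB1 from -0.441 to 0.019, CDC25B from -0.032 to 0.525, CDK1 from -0.372 to 0.033, FOXM1 from -0.553 to 0.123, MKI67 from -0.255 to 0.055, NUSAP1 from -0.771 to 0.62 and UBE2C from -0.428 to 0.029. In KO2 against KO1 they ranged for AURKA from -0.475 to 0.043, AURKB from -0.249 to 0.222, CCNB1 from -0.198 to 0.281, CDC25B from -0.335 to 0.202, FOXM1 from -0.443 to 0.253, MKI67 from -0.143 to 0.187, NUSAP1 from -0.803 to 0.613 and PLK1 from -0.409 to 0.067. Between the sets, CDK1 ranged from -0.033 to 0.228.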
